A study of Mus musculus with 2 samples.

Results

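The nuclear genes of oxidative phosphorylation were described in the whole brain of embryonic day 14.5 mice of strain C57BL/6J. Members were the protein-coding nuclear genes whose symbols name subunits of Complex I (Nduf genes of the a, b, c, s and v series), Complex II (Sdha to Sdhd), Complex III (Uqcr genes), Complex IV (Cox4 to Cox8 genes) or ATP synthase (Atp5 genes). Of 85 such genes in the annotation, 84 had values, out of 21461 protein-coding nuclear genes. The series holds 1 group of 2 libraries made from polyadenylated RNA of mixed-sex littermates, with no transgene, treatment or control group. The labels name a single donor entry for both libraries and do not say which embryos went into which, so the spread between them may be technical.

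Oxidative phosphorylation passes electrons from NADH and succinate through Complexes I to IV of the inner mitochondrial membrane to oxygen, and ATP synthase uses the proton gradient that results. The catalytic core of Complexes I, III and IV and part of ATP synthase is encoded in mitochondrial DNA, and the rest by the nuclear genes described here. Several Complex IV subunits have paralogs used mainly in heart and skeletal muscle, testis or hypoxic tissue, and subunit c of ATP synthase comes from 3 genes that give the same mature protein.

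Expected counts, the read pairs assigned by estimation, summed to 107938353 in replicate 1 and 101105391 in replicate 2. These totals include 97 spike-ins and 26248 entries named only by numbers. Genes with Ensembl identifiers held 103493273 and 97539706 of them. Levels are given in TPM, the share of transcripts in a library scaled to a fixed sum, a value per length of transcript that allows genes to be compared with each other. Markers fitted the labelled tissue. All 6 neuronal markers (Tubb3 at 2753 and 2640 TPM) and all 6 neural progenitor markers reached 1 TPM in both libraries. Blood and vessel cells were also represented, with 6 of 7 erythroid, 7 of 8 pericyte and smooth muscle and 4 of 4 endothelial markers at that level. Of 10 muscle markers 5 reached 1 TPM in both libraries, from Actc1, a cardiac actin, at 13.96 and 7.46 TPM to the muscle creatine kinase gene Ckm at 0.13 and 0.26 TPM. None of 6 male germ cell and none of 3 brown fat markers did. As these are bulk libraries, fewer cells of a type and less RNA per cell cannot be told apart.

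Promoter sequence was searched for the letters of factors known for control of these genes. NRF1, the ETS factor GABPA and YY1 are regulators of nuclear genes for respiratory subunits, and RefSeq promoter windows (GRCm38.p6, 250 bases before to 50 after the start) were available for 68 of the 84 members. The stretches below run from 100 bases before the start to 20 after it and hold letters of these motifs, in capitals, on either strand. They were chosen to show 1 or more examples from each complex, with the muscle-type paralog of Cox8a, Cox8b, which held none of these letters. Its capitals mark the run TATAAA, which begins 5 bases after the annotated start and so lies outside the usual place of a TATA box. Atp5j has 2 windows, of which 1 is shown. The same stretch of the other (chr16:84835606-84835725) held none of these motifs.
Ndufs3, chr2:90904702-90904821, minus strand: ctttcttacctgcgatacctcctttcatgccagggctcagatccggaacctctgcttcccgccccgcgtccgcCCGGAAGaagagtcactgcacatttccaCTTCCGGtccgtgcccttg
Sdhb, chr4:140961171-140961290, plus strand: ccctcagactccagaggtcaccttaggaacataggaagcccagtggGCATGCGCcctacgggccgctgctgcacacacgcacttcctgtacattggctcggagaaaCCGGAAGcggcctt
Uqcr11, chr10:80406802-80406921, minus strand: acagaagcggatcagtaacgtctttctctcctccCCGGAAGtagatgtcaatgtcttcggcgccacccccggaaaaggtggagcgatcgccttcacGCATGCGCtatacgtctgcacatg
Cox8a, chr19:7217597-7217716, minus strand: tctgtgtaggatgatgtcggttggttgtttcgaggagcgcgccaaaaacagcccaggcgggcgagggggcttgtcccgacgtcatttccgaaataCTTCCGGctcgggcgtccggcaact
Atp5j, chr16:84834957-84835076, minus strand: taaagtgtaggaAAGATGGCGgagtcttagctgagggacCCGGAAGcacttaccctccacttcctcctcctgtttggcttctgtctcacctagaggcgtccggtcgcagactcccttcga
Atp5k, chr5:108434380-108434499, minus strand: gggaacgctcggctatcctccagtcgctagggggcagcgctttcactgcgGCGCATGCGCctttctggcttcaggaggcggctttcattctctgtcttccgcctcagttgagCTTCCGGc
Cox8b, chr7:140900427-140900546, minus strand: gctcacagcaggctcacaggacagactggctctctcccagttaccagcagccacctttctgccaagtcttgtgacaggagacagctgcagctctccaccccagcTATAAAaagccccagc

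The NRF1 core (GCATGCGC) was found in 10 of 68 member promoters, 14.7%, against 3.05% of all 27025 genes with a window. The ETS core (CCGGAAG) was found in 16, 23.5%, against 9.93%, and the YY1 core (AAGATGGCG) in 7, 10.3%, against 1.64%. Among the 17492 protein-coding genes of the table the shares were 3.94%, 12.9% and 2.14%. On the sense strand alone the NRF1 and YY1 cores stayed at 10 and 7 members, whereas the ETS core was found in 5, 7.35%, close to 5.4% of all genes and 7.11% of protein-coding genes. The other letters searched were found at shares closer to those of all genes: the SP1 core (GGGCGG) in 41.2% against 38.2%, CCAAT in 44.1% against 41.1%, and TATAAA in 10.3% against 15.7%. At least 1 of the NRF1, ETS and YY1 cores was present in 27 of the 68 members, 39.7% against 13.6% of all genes, and 2 or more in 6, 8.82% against 1.02%. The YY1 core lay downstream of the start in 6 of its 7 matches, at a median of 25 bases after it. Complex I genes, 31 of the 68, made up 5 of the 7 members with the YY1 core and 3 of the 10 with the NRF1 core, counts too small to compare. The NRF1 core and its reverse complement can overlap, as they do in Atp5k. A match is a run of letters and shows no binding. The regulators themselves were expressed: Nrf1 at 58.6 and 46.3 TPM, Yy1 at 40.5 and 36.5 TPM and Gabpa at 22.6 and 20.3 TPM.

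**Figure D1:**
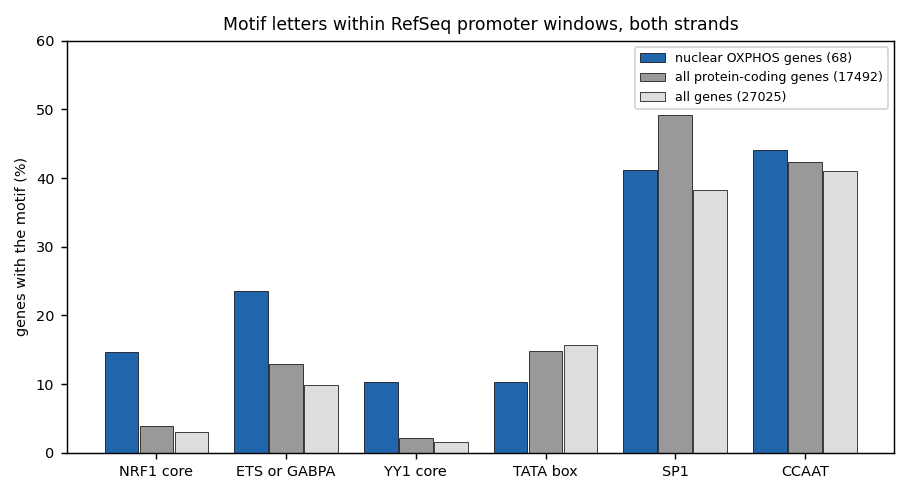
Share of genes (vertical axis, percent) whose RefSeq promoter window holds the letters of each motif on either strand, for the 68 nuclear oxidative phosphorylation genes with a window, all protein-coding genes and all genes. The NRF1, ETS and YY1 bars of the members (14.7%, 23.5% and 10.3%) stand above both comparison bars, while the SP1 bar (41.2%) lies between the comparison bars and the CCAAT bar (44.1%) near them.

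Nearly every member was expressed. At 1 TPM or more in both libraries there were 80 of the 84, against 62.1% of protein-coding nuclear genes. The median member stood at 206 and 173 TPM (replicates 1 and 2, the order used throughout), against 5.39 and 5.92 TPM for protein-coding nuclear genes as a whole. Summed, the members made up 2.43% and 1.85% of each library's TPM. The 4 members under 1 TPM were all paralogs of Complex IV subunits: Cox6a2, Cox7b2, Cox8b and Cox8c. The mitochondrially encoded subunits stood higher, at a median of 2096 and 2812 TPM over 13 genes.

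**Figure D2:**
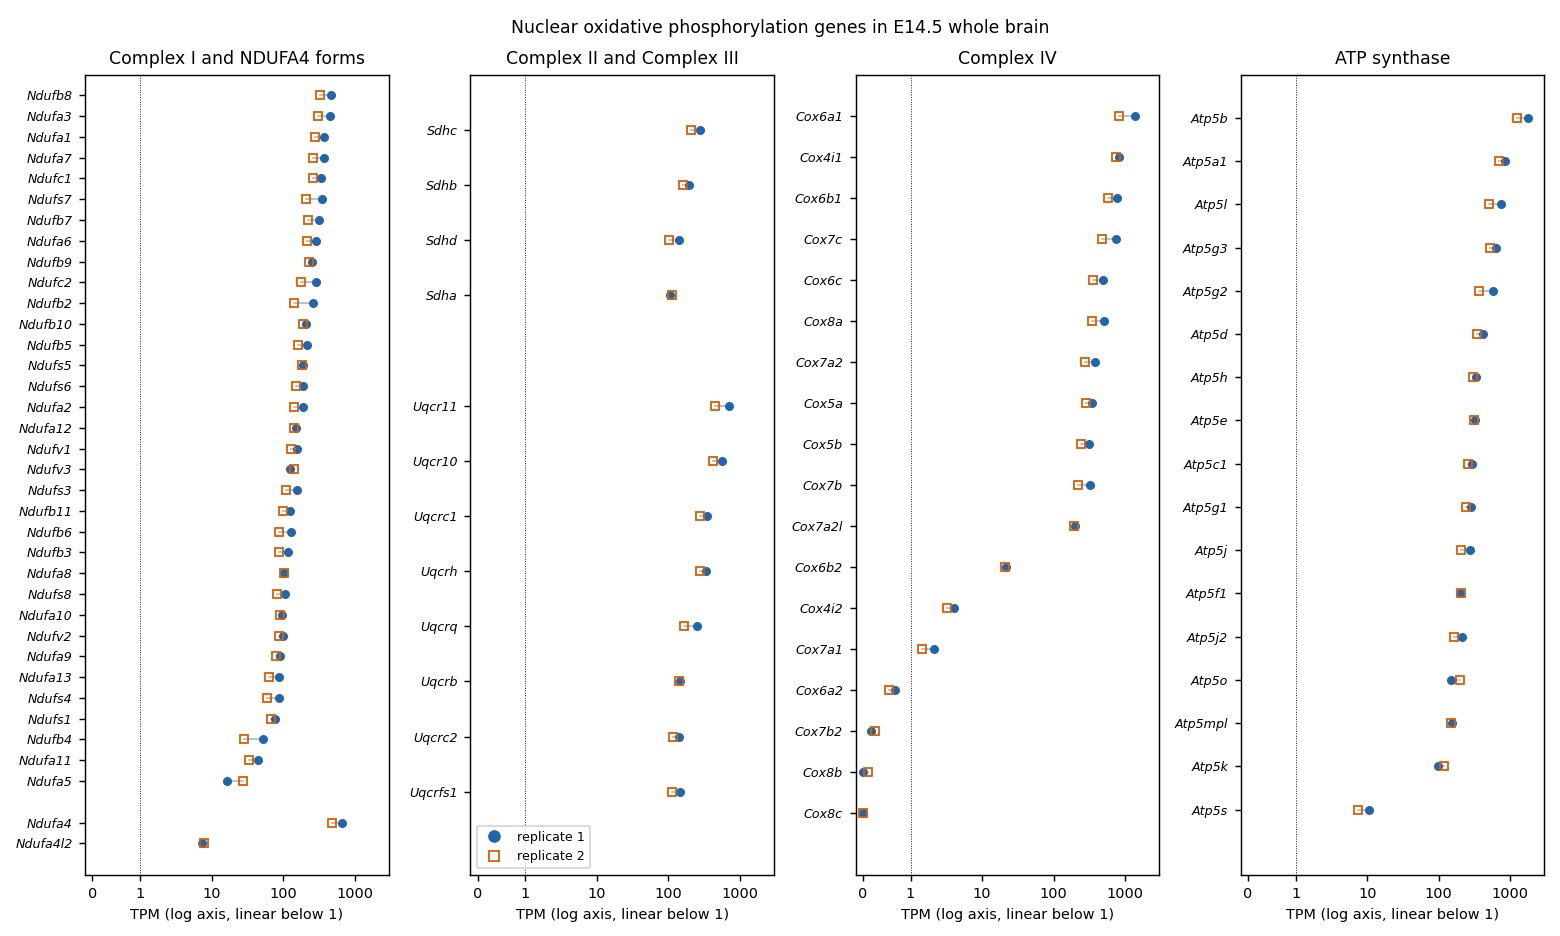
TPM of 83 of the 84 members (horizontal axis, logarithmic above 1 and linear below) by complex, ordered by mean; filled circles are replicate 1 and open squares replicate 2. The dotted line marks 1 TPM. Complex IV spans the widest range, from 1366 TPM for Cox6a1 in replicate 1 to 0 for Cox8c.

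Complex I, which takes electrons from NADH, had a median of 143 ± 9.65 TPM (SD, n = 2; 35 genes), excluding the Ndufa4 pair, whose product is now counted with Complex IV. Complexes I and II, at 154 and 140 TPM and at 167 and 137 TPM, changed places between the libraries, and the medians of Complexes III, IV and ATP synthase lay above both in each. Its core subunits that bind NADH, flavin and iron-sulfur clusters lay on both sides of that median. Ndufv1, which holds the flavin, stood at 158 and 129 TPM, Ndufv2 at 98.3 and 87.3 TPM, and Ndufs1 at 77.2 and 66.9 TPM. In the quinone module, Ndufs7 stood at 353 and 207 TPM, Ndufs3 at 154 and 109 TPM and Ndufs8 at 107 and 81.6 TPM. The accessory subunits of the distal membrane arm had a median of 193 ± 43.1 TPM (SD, n = 2; 10 genes), against 92.8 ± 7.77 TPM for the 3 core genes of the NADH module. The order between those groups held in both libraries, at 213 against 98.3 TPM and 152 against 87.3 TPM.

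The highest Complex I genes were Ndufb8 at 467 and 330 TPM, Ndufa3 at 452 and 303 TPM, and Ndufa1 at 377 and 277 TPM, all accessory membrane subunits. The lowest were Ndufa5 at 16.6 and 27.6 TPM, Ndufa11 at 44.1 and 32.9 TPM, and Ndufb4 at 52.4 and 28.5 TPM. Highest and lowest genes of the complex differed 18.0-fold by mean. Ndufa5 lay below Ndufa11 and Ndufb4 in both libraries, but its higher value, 27.6 TPM, came close to the lower value of Ndufb4. The level of Ndufb4 is uncertain, for a reason given with the copies.

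Complex II, succinate dehydrogenase, had 4 genes within a 2.23-fold range of means. The flavoprotein gene Sdha stood at 105 and 113 TPM, the iron-sulfur subunit gene Sdhb at 193 and 162 TPM, and the membrane anchors Sdhc at 279 and 207 TPM and Sdhd at 141 and 103 TPM. The values of Sdha and Sdhd overlapped between the libraries, and those of Sdhc stood above the other 3 genes in both.

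Complex III had a median of 257 ± 51.7 TPM (SD, n = 2; 8 genes), and its small subunits led. Uqcr11 stood at 706 and 454 TPM and Uqcr10 at 561 and 422 TPM. The core protein genes were Uqcrc1 at 348 and 276 TPM and Uqcrc2 at 142 and 116 TPM, and the Rieske iron-sulfur protein gene Uqcrfs1 stood at 143 and 114 TPM. Uqcrb, a small subunit, was at 143 and 139 TPM, and these 3 lowest genes overlapped between the libraries. Uqcrc1 was higher than Uqcrc2 in both libraries without overlap, although the products of both are core proteins.

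Complex IV, cytochrome c oxidase, divided into ubiquitous and low genes. Its 11 ubiquitous genes had a median of 423 ± 107 TPM (SD, n = 2) and lay between 198 and 1098 TPM by mean. Cox6a1 led at 1366 and 830 TPM, then Cox4i1 at 818 and 743 TPM and Cox6b1 at 768 and 583 TPM. Cox5a and Cox5b, further nuclear subunits with no second gene among the members, stood at 348 and 285 TPM and at 310 and 240.5 TPM. The remaining 7 genes were at 21.8 TPM or lower in each library and are described with the pairs.

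ATP synthase held the highest member. Atp5b, the catalytic beta subunit, stood at 1792 and 1225 TPM and ranked 40 of the 21461 protein-coding nuclear genes by mean. Atp5a1, the alpha subunit, followed at 844 and 700 TPM, and the membrane subunit Atp5l at 749 and 499 TPM. The gamma subunit gene Atp5c1, of which the enzyme holds 1 copy for 3 of alpha and 3 of beta, stood at 296 and 254 TPM. Atp5a1 was 2.85 and 2.76-fold above Atp5c1, and Atp5b 6.06 and 4.83-fold. Over protein-coding transcripts alone these ratios were 1.96 and 2.06 for Atp5a1 and 2.55 and 2.73 for Atp5b. The lowest were Atp5s at 10.4 and 7.46 TPM, a coupling factor relative that is no structural subunit, Atp5k at 99.1 and 119 TPM, and Atp5mpl at 151 and 150.3 TPM.

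Part of the signal of several genes came from transcripts not annotated as protein-coding. By mean over the libraries, protein-coding transcripts held under 50% of the TPM of 2 members and under 75% of 6. The same counts were not made over all protein-coding genes, so this is not shown to be a trait of the members. They held 43.8% and 49.3% of Ndufa10, 42.1% and 56.6% of Atp5b, 58.6% and 63.6% of Ndufs1, 72.4% and 64.8% of Ndufc1, 63.5% and 74.5% of Ndufs3 and 68.7% and 74.6% of Atp5a1. Counted over coding transcripts alone, Atp5b stood at 754 and 693 TPM, below Cox6a1 at 1357 and 825 TPM in both libraries. The first rank of Atp5b therefore holds for all transcripts of the gene and not for its coding ones. Of 55 members at 10 TPM or more with several transcripts, 2 had a different top transcript in each library, Ndufs1 and Uqcrq, or 3.64%, against 8.12% of 7021 protein-coding genes. With expected counts in place of TPM the shares were nearly equal, 3 of 55, 5.45%, against 5.5%. The top transcript carried at least 50% of the gene's TPM in each library for 49 of the 55, 89.1%, against 67.4% of the 7021. It was the same in both libraries and not annotated as protein-coding for 0 of the 55, against 543 of the 7021.

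Paired subunit isoforms were compared within each library, as the log2 ratio of their TPM, and called apart where the ratio had the same sign in both libraries and its mean exceeded 1 and its SD. Of 12 pairs, 7 were apart, 3 were not, and 2 could not be computed because a gene had no counts in a library. In each muscle-type pair that could be computed the ubiquitous gene led. Cox6a1 stood above the heart and muscle gene Cox6a2, at 0.67 and 0.55 TPM, by 10.78 ± 0.31 on the log2 scale (SD, n = 2). Cox7a2, at 385 and 279 TPM, stood above the heart and muscle gene Cox7a1, at 2.11 and 1.47 TPM, by 7.54 ± 0.04. Cox8a, at 503 and 343 TPM, faced Cox8b, the heart and muscle form, with 0 and 1 counts, a pooled ratio of 8212-fold with an exact 95% interval from 1474 to 324368. The interval covers counting error alone.

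The testis-linked forms were not equally silent. Cox8c had no count in either library, so Cox8a was at least 2944-fold higher in replicate 1 and at least 1872-fold higher in replicate 2, taking 3 counts in a library as the floor. Cox7b, at 328 and 220.2 TPM, stood 10.31 ± 0.74 above Cox7b2 (SD, n = 2), which rested on 4 and 5 counts. Cox6b2 was the exception at 21.8 and 20.9 TPM, from 433 and 389 counts, and Cox6b1 stood 4.97 ± 0.24 above it (SD, n = 2). Cox6b2 made up 2.75% of the summed TPM of that pair in replicate 1 and 3.47% in replicate 2. None of the 6 male germ cell markers reached 1 TPM in both libraries, the highest being Ddx4 at 0.96 and 0.97 TPM.

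The hypoxia-linked forms were low but above the muscle forms. Cox4i2, at 4 and 3.25 TPM, lay 7.76 ± 0.11 below Cox4i1 on the log2 scale (SD, n = 2), and Ndufa4l2, at 7.44 and 7.74 TPM, lay 6.21 ± 0.37 below Ndufa4, at 659 and 477 TPM. Both low genes are known from pericytes of the mouse brain, whose markers Rgs5 (21.4 and 29.7 TPM) and Pdgfrb (17.8 and 22.7 TPM) were present. Their part in these levels was not tested. Cox7a2 and its supercomplex-linked relative Cox7a2l, at 202 and 194 TPM, were not apart, with a mean log2 ratio of 0.72 ± 0.29 (SD, n = 2).

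**Figure D3:**
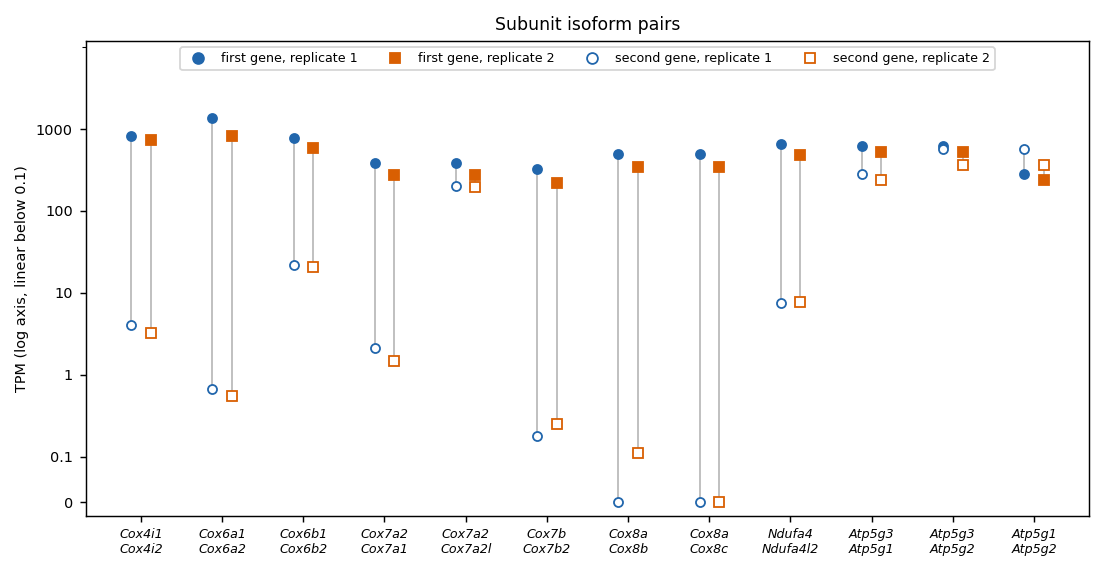
TPM (vertical axis, logarithmic above 0.1 and linear below) of the genes of 12 subunit pairs; filled symbols are the first gene named under each position, open symbols the second, circles replicate 1 and squares replicate 2. Cox8c lies at 0 in both libraries, and the 3 genes for subunit c lie within 238 and 626 TPM.

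The 3 genes for subunit c, which forms the rotor ring, were all expressed. Atp5g3 stood at 626 and 521 TPM, Atp5g2 at 571 and 363 TPM and Atp5g1 at 285 and 238 TPM. Atp5g3 gave 44.3 ± 2.99% of their summed TPM, Atp5g2 35.4 ± 4.37% and Atp5g1 20.2 ± 1.37% (SD, n = 2 each). Atp5g3 exceeded Atp5g1 by 1.13 on the log2 scale in both libraries and was apart from it, while Atp5g3 and Atp5g2, at 0.33 ± 0.28, were not. The deposited mm9 RPKM values gave larger log2 ratios, 4.38 for Atp5g3 over Atp5g1, 2.92 for Atp5g3 over Atp5g2 and -1.46 for Atp5g1 over Atp5g2, so the order of the 3 genes was the same in both tables and their shares were not. The coding sequences of the mature protein differ between the genes. The first 120 bases of that part, from the leading GENCODE vM21 coding transcripts, are shown with the positions in capitals where the 3 genes do not all match.
Atp5g1: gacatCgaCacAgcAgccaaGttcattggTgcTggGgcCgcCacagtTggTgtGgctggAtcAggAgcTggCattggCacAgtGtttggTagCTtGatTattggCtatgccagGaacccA
Atp5g2: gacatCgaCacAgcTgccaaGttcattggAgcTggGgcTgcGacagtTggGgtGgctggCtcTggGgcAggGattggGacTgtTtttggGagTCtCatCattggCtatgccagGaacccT
Atp5g3: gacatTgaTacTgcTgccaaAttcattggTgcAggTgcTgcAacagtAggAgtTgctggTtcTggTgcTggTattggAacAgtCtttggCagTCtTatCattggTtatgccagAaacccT
Over the last 75 codons and the stop codon, Atp5g1 and Atp5g2 shared 85.1% of bases, Atp5g1 and Atp5g3 79.8%, and Atp5g2 and Atp5g3 78.5%. The longest identical run between any 2 of them was 21 bases.

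Copies elsewhere in the genome touch some levels. Of the 84 members, 29 had at least 1 pseudogene whose annotated transcript matched the member at 90% identity or more over 150 bases and 50% of its length, 57 pseudogenes in all, and 13 of these pseudogenes stood at a mean of 1 TPM or more. By listed TPM, the copies were small next to their members for 28 of the 29, at 6.63% of the member's TPM or less on average. Copies of Cox7c (Gm12338), Atp5g2 (Gm10175) and Atp5l (Gm10221) were 100% identical to their members over the copy's whole length. Reads from those stretches cannot be placed by sequence, so the listed split between copy and member is an estimate there as well. Ndufb4 was the exception by listed TPM. Its processed copy Ndufb4c (chr15:73809507-73809896, minus strand, mm10) is identical to the whole 390-base coding sequence of Ndufb4 and was listed at 328 and 198 TPM, 6.27 and 6.93 times Ndufb4. The first 120 coding bases, held by both loci, are given because reads from them cannot be placed by sequence.
Ndufb4 and Ndufb4c: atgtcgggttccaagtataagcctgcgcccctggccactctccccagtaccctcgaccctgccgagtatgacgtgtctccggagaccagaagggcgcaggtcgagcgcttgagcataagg
Summed by listed TPM, the 2 loci stood at 380 and 226 TPM, but the 2 values rest on different lengths. Ndufb4c held 3837 and 2192 expected counts on its 390 bases. Ndufb4 held 2600 and 1245 at effective lengths of 726 and 712 bases. Placed on the length of Ndufb4, the same counts would give a lower level, so the sum does not settle where Ndufb4 stands among the distal-arm genes.

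Splicing of member genes was read from junction counts, as the percent spliced in of an exon: the mean of its 2 inclusion junctions over that mean plus the skipping junction. Of 21 exons in 17 members with 3 annotated junctions and inclusion counts within 5-fold of each other, 8 were included at 95% or more and 10 at 5% or less. The 3 others, 14.3%, lay between, against 60.7% of 6681 such exons in the whole table. The members' junctions were also deeper, at a median of 2570 reads against 322. Among exons with 1000 reads or more the shares were 14.3% of 14 and 45.1% of 1168. The 3 exons were a 50-base exon of Ndufa7 at 91.8% (exact 95% binomial interval 91.0 to 92.5%), a short exon of Atp5h at 5.63% (3.89 to 7.86%) and the long exon of Ndufv3. Ndufa7 had 7335 and 2142 inclusion and 426 skipping reads, and Atp5h 50 and 14 inclusion and 536 skipping reads. The 2 inclusion junctions of each exon thus differed widely, a spread that intervals on their mean leave out. These intervals cover counting error only, and the 2 deposited counts could lie outside them, at 89.8% and 94.7% for Ndufa7 and at 96.7% and 98.7% for the Atp5c1 exon described next.

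Ndufv3 and Atp5c1 have exons known for tissue-dependent use. The 1092-base exon of Ndufv3 (chr17:31527310-31528401, mm10), which gives a long form of this Complex I subunit, was included at 7.42% (exact 95% interval 6.52 to 8.43%, 166 and 277 inclusion and 2764 skipping reads). Transcript estimates from the mm10 files gave the long transcript 7.8% of the gene's TPM and the short one 91.0%, so both readings put the short form first. The 37-base exon of Atp5c1 (chr2:10056770-10056806, minus strand, mm10), skipped in heart and skeletal muscle, was included at 97.7% (96.5 to 98.5%, 534 and 1295 inclusion and 22 skipping reads). The transcript with the exon held 92.2 ± 4.05% of the gene's TPM (SD, n = 2) and the leading transcript without it 6.55 ± 4.26%. The coding end of the transcript with the exon is shown, the exon's coding bases in capitals, since these last 7 bases with the stop codon are what the exon adds to the reading frame.
Atp5c1, coding end with the exon: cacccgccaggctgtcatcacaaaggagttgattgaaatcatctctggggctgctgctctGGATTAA

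**Figure D4:**
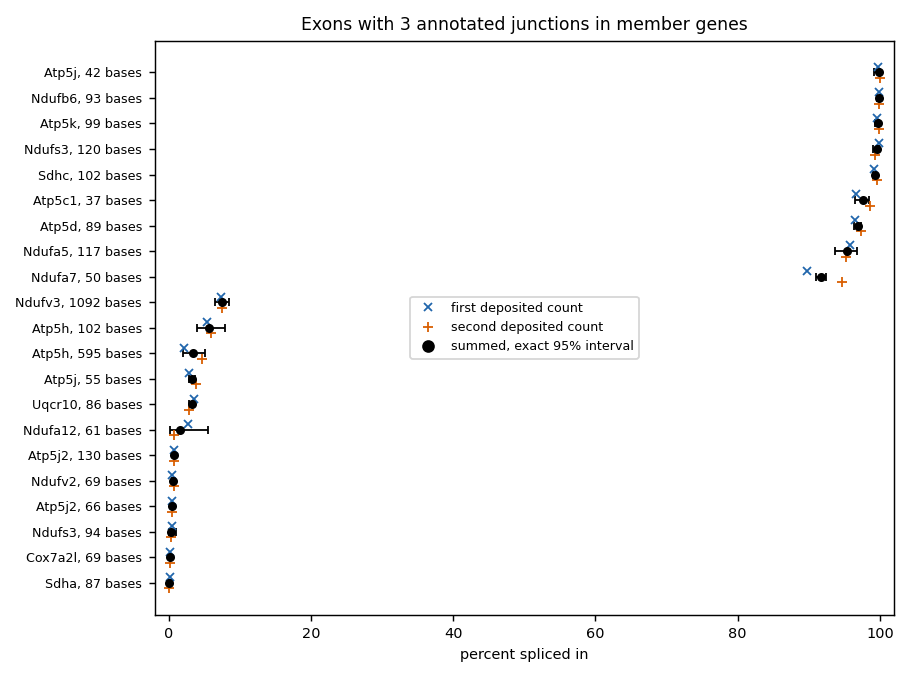
Percent spliced in (horizontal axis) of the 21 exons with 3 annotated junctions, by gene and exon length; black points are summed counts with exact 95% binomial intervals, crosses and plus signs the 2 deposited counts, which are not tied to a replicate. Exons lie near 0 or near 100%, with Ndufv3 at 7.42% and Ndufa7 at 91.8%.

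The members were lower in replicate 2 than in replicate 1. The log2 ratio of TPM + 1, replicate 2 over replicate 1, had a median of -0.33 over the 80 members at a mean of 1 TPM or more, against 0.01 over all 13629 such genes. It was below 0 in 71 of the 80, where 48.9% of all genes were. All 8 Complex III genes and the 14 Complex IV genes at that level were lower in replicate 2, as were 31 of 35 in Complex I, 3 of 4 in Complex II and 14 of 17 in ATP synthase. With TPM rescaled without mitochondrially encoded and spike-in rows, those counts became 7 of 8, 12 of 14, 30 of 35, 3 of 4 and 12 of 17. With 1 library on each side there is no test of this difference.

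The differences were small. No member passed 2-fold, a size that 0.741% of all genes passed downward and 1.8% upward. At 1.5-fold or more, 9 were lower, where 5.86% of all genes were, and 1 was higher, where 8.43% were. Furthest below 0 were Ndufb4 at -0.85, Ndufb2 at -0.85 (259 and 143 TPM) and Ndufs7 at -0.77. Furthest above 0 were Ndufa5 at 0.70, Atp5o, a peripheral stalk subunit, at 0.38 (150 and 195 TPM) and Atp5k at 0.26. This order is that of TPM. With TMM and DESeq2 scaling of counts Ndufb2 stood at -0.61 and -0.63, behind Cox6a1 at -0.74 and -0.76, and Ndufa5 at 0.50 and 0.49. Ndufb4 stayed lowest of these genes, at -0.92 and -0.94, and Ndufs7 stood at -0.81 and -0.83. The Ndufb4 values rest on its listed split from the copy Ndufb4c. The order of the members was nearly the same in both libraries, with a Spearman rho of 0.98 across 80 genes that share the same 2 libraries.

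Markers of several cell types differed between the libraries in the other direction. By TPM, all 7 erythroid markers (median log2 ratio 0.40), all 8 pericyte and smooth muscle markers (0.28), 3 of 4 endothelial markers (0.57) and 5 of 6 neuronal markers (0.26) were higher in replicate 2, and 4 of 6 neural progenitor markers were lower (median -0.34). With FPKM, TMM or DESeq2 scaling 6 of 7 erythroid and 7 of 8 pericyte markers were higher. Their summed levels were 9656 and 11601 TPM for erythroid, 90.2 and 113 TPM for pericyte and smooth muscle, 135 and 157 TPM for endothelial, 4571 and 5009 TPM for neuronal and 2045 and 1859 TPM for progenitor markers. Of the 10 muscle markers 5 were lower and 5 higher in replicate 2, with sums of 39.2 and 26.65 TPM. Among the 6 of them at a mean of 1 TPM or more, 5 were lower (median -0.59). Over protein-coding transcripts alone 4 of 6 progenitor markers were still lower, but their median was -0.06 and their sums were 1398 and 1441 TPM. The part of cell composition in the members' difference was not tested.

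Gene length and level also moved with the difference between the libraries. Over all protein-coding genes the median log2 ratio was -0.27 at effective lengths under 300 bases, -0.31 at 300 to 600, -0.25 at 600 to 1200, -0.09 at 1200 to 2400 and 0.16 above 2400. The effective length is the length over which a fragment can start. Members are short, 69 of the 80 under 1200 bases, and their medians in the first 4 classes were -0.40, -0.40, -0.33 and -0.28. Across genes, Spearman's rho between the ratio and length was 0.46 over all 13629 genes and 0.13 over the 80 members, which share the same 2 libraries. By level, genes at 200 to 500 TPM had a median of -0.22 and the 29 members among them -0.43. At 500 TPM or more the medians were -0.23 and, over 10 members, -0.51. At 100 to 200 TPM they were nearly equal, -0.19 for genes and -0.21 for 26 members. At 50 to 100 TPM they were -0.11 and, over 7 members, -0.20. At 10 to 50 and 1 to 10 TPM, with 4 members each, genes had 0.01 and 0.14 and members -0.23 and -0.28. The part of length and of level in the difference was not tested.

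**Figure D5:**
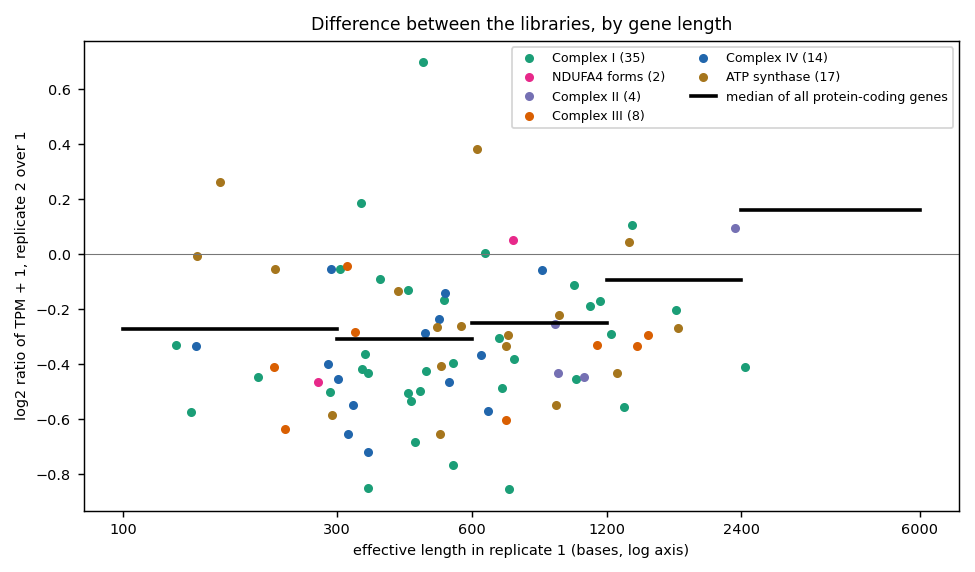
Log2 ratio of TPM + 1, replicate 2 over replicate 1 (vertical axis), against effective length in bases (logarithmic horizontal axis) for the 80 members at a mean of 1 TPM or more, coloured by complex; black lines are medians of all protein-coding genes in 5 length classes. Members lie mostly below 0, and the line of all genes passes from -0.31 at 300 to 600 bases to 0.16 above 2400 bases.

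Other genes of the pathway shared the direction or went against it. Of the assembly factors, 47 of 48 reached 1 TPM in both libraries at a median of 22.5 TPM, 35 lower and 12 higher in replicate 2, with a median log2 ratio of -0.18. Their highest members were Uqcc2 at 276 and 184 TPM, Cox14 at 206 and 114 TPM and Coa3 at 132 and 121 TPM. Of the electron carriers and related genes 15 of 16 were lower, with Cyc1, the cytochrome c1 of Complex III, at 359 and 253 TPM. All 13 mitochondrially encoded subunit genes were higher, with a median of 0.45 (mt-Co1 at 6407 and 7846 TPM). Of genes for mitochondrial ribosomal proteins 67 of 77 were lower (median -0.28), of those for cytosolic ribosomal proteins 62 of 82 (-0.21) and of glycolytic genes 12 of 17 (-0.09). With TPM rescaled without mitochondrially encoded and spike-in rows the medians of these lists kept their signs, that of glycolysis at -0.02.

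Of 15 genes listed as regulators of mitochondrial genes, not all of them transcriptional, 13 reached 1 TPM in both libraries. Polrmt, the mitochondrial RNA polymerase, led at 67.3 and 47.8 TPM, then Nrf1 and Polg, the mitochondrial DNA polymerase, at 44.2 and 34 TPM. The coactivator Ppargc1a stood at 4.85 and 8.41 TPM and its relative Ppargc1b at 0.23 and 0.86 TPM. Of the 13 listed genes at that level, 10 were lower in replicate 2, with a median log2 ratio of -0.15.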

How the data were processed

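The deposited mm10 tables hold expected counts that the authors estimated per gene and transcript. Notes in the text of those tables name the annotation GENCODE M4, and the program used for quantification is not given in the sources. The authors' deposited TPM and FPKM values come from the same tables. The mm9 RPKM values and junction counts are the authors' deposited values, each with 2 entries not tied to a replicate, and junctions carry a deposited reproducibility fraction.

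Members and lists were chosen with earlier results of these data known. Symbols came from GENCODE vM21 by Ensembl identifier, and 1 annotated member was not used here. Means and SDs are over 2 libraries, and no p-values were computed. Ratios used a pseudocount of 1. Values are given for the 3 highest and 3 lowest members of each complex, catalytic subunits, pairs and the 3 largest differences in each direction, except 1 catalytic subunit gene that enters the counts and medians and is not reported here. Copies were found with BLAST+ 2.17.0. Exons with 10 or more reads were kept. The mm9 span of Atp5o exceeded 2 times its mm10 span, so its exons were left out. Promoters were matched by symbol or synonym. The ratio step was tested on simulated data. Scaling factors came from edgeR 4.0.16 and DESeq2 1.42.0 on expected counts rounded to whole numbers. Alternatives covered units, scaling, thresholds and each library left out. Python 3.11.15 and R 4.3.3 were used. Floors of 3 counts, 2.78e-06% and 2.97e-06% of the totals, cover counting error only.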

Additional observations from a re-analysis of the deposited data

How the results depend on the processing

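Of 218 values recomputed under alternatives, 156 kept their label and 62 moved. Levels and pairs were judged by their error, counts by 1.5 times, and other log2 ratios by a limit of 0.1. A change of direction was looked for only in the members' median log2 ratio and in the pairs called apart, and none was found there. The count of members at 1 or more was 79 with FPKM, 74 with mm9 RPKM and 78 at 5 TPM, and 80 with each library left out. The members' median level was 173 to 206 TPM with either library left out, and in other units 120 (FPKM), 226 (TPM without mitochondrially encoded and spike-in rows), 249 (TPM over protein-coding nuclear genes) and 14.4 (mm9 RPKM), which follows from the units. The number of members lower in replicate 2 lay between 63 and 74 of 80 over the scalings, and the median log2 ratio between -0.40 and -0.23, the latter with TPM over protein-coding nuclear genes, where 38.1% of all genes were lower in place of 48.9% and their median was 0.12. With FPKM and with DESeq2 size factors 92.5% of members were lower, where 55.2% and 55.7% of all genes were, and over protein-coding nuclear genes 78.8%. Lowering the fold called from 2 to 1.5 raised the members past it from 0 to 10. Pairs apart were 7 of 10 that could be computed, 8 of 11 without replicate 1 and 8 of 10 without replicate 2. They were 9 of 12 with a pseudocount or posterior mean TPM, where more pairs could be computed, and 9 of 10 with mm9 RPKM. Exon triples of members between 5 and 95% numbered 123 with any junction, 55 at 50 reads or more, 31 at a reproducibility value of 0.1 or less and 3 with annotated, balanced junctions, a rule chosen after seeing the data. On the sense strand alone 19 of 68 promoters held an NRF1, ETS or YY1 core in place of 27. The ratio of mm9 RPKM values between replicates was not run, since these are not tied to replicates. No paired analysis was possible because there is 1 group.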

Other observations

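The mm9 table gave members lower values than the mm10 table relative to other genes. The ratio of mm9 RPKM to mm10 FPKM had a median of 0.121 over 80 members and of 0.187 over 13431 protein-coding genes. It was 0.0341 over the 11 members with a pseudogene copy at 1 TPM or more and 0.129 over the other 69. Atp5mpl and Atp5g1 lay lowest, at 0.0150 and 0.0162. These groups also differed in length, at a median effective length of 374 bases with a copy and 535 without, and the part of copies in the ratio was not tested.

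In the mm9 table the value numbered 2 exceeded the value numbered 1 in 77 of the 80 members, against 67.0% of protein-coding genes, whereas in the mm10 files replicate 2 was lower for 71 of 80. The labels do not tie the numbering of the mm9 values to the replicates.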
